A study of Mus musculus with 18 samples.

Results

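Thapsigargin and tunicamycin, which stress the endoplasmic reticulum (ER), were set side by side in 1 pair of groups of mouse embryonic fibroblasts, which are connective tissue cells grown from embryos. The first group carries the label Ago2+/+ and received thapsigargin at 500 nM, and the second carries the label Ago2-/- and received tunicamycin. The pair was chosen by its readout, since among the 15 pairs of the 6 groups it is 1 of 3 in which both members have nearly the same expression. Of 51499 assembled loci in the series, 51493 were described after 6 copies of mitochondrial genes on chromosome 1 were left out, and 11820 of these reached 1 FPKM (fragments scaled to transcript length and to the mapped fragments of the library) in 1 or both groups. Each group holds 3 libraries, but the deposited FPKM is 1 pooled value per group made by the authors, and the labels do not say whether those libraries came from separate cultures or whether each cell line is 1 clone. The pooled FPKM values give no SD and no replicate check, no test was run on them, and every ratio below is a description. Genotype label and stressor change together in this pair, so their parts in a ratio cannot be told apart.

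Tunicamycin blocks the first step of N-linked glycosylation, and thapsigargin blocks the SERCA calcium pumps that fill the ER with calcium. Both leave proteins unfolded in the ER lumen. Cells answer through the unfolded protein response, in which the sensors IRE1, PERK and ATF6 raise chaperones, ER-associated degradation (ERAD) and, through the transcription factor ATF4, amino acid supply and the factor CHOP, encoded by Ddit3. AGO2 is the Argonaute protein that binds microRNAs and cleaves fully matched targets.

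Labels were checked against the transcripts first. Ago2 stood at 17.01 FPKM under the label Ago2+/+ thapsigargin and 15.5 FPKM under the label Ago2-/- tunicamycin, a log2 ratio of 0.12. In the other groups it was at 5.61 FPKM (labelled Ago2-/- DMSO), 5.75 FPKM (Ago2+/+ tunicamycin), 20.7 FPKM (Ago2-/- thapsigargin) and 22.1 FPKM (Ago2+/+ DMSO), so its level did not follow the genotype labels. Transcripts of ER stress did not follow the treatment labels either, since the group labelled Ago2-/- DMSO had 7682 FPKM of Hspa5 (5367 and 5155 FPKM in the pair) and 339 FPKM of Ddit3 (345 and 349 FPKM). Each of the 3 close pairs joins groups that differ in both labels. Every direction given here rests on these labels. The labels do not say which part of the gene was deleted, and both groups are named by their labels throughout. Groups labelled Ago2+/+ carry the name DCR1 in the titles, and 1 of the 3 libraries of the Ago2+/+ thapsigargin group has labels that disagree on genotype. Dicer1, which cuts microRNA precursors, had 18.7 and 17.5 FPKM. Of 12 fibroblast markers, 9 reached 1 FPKM, with Vim at 1181 and 952 FPKM and Fn1 at 567 and 599.5 FPKM. Of those 9, 8 had a ratio below 0 and 1, Vim, above it, with 1 higher and 3 lower with thapsigargin at 1.2-fold and a median of -0.19 on the log2 scale. Those counts stand beside 8.23% higher and 8.45% lower of all loci at 1.2-fold. Of 7 macrophage markers 1 reached 1 FPKM (Cd68), and of 6 endothelial and 7 epithelial markers 0 did. The Y-linked genes Ddx3y (23.3 and 24.7 FPKM) and Eif2s3y (32.3 and 30.3 FPKM) were alike in both groups, and Xist was at 0.0102 and 0.00612 FPKM. Ddx3y and Eif2s3y were listed at 0 in the groups labelled Ago2-/- DMSO, Ago2+/+ tunicamycin, Ago2-/- thapsigargin and Ago2+/+ DMSO. Like Ago2, these Y-linked transcripts thus did not follow the genotype labels, and the reason was not tested. The genes of particular interest to the study were low, with C1rl at 0.359 and 0.785, Mertk at 0.684 and 0.991 and Nov at 0.601 and 0.869 FPKM in the thapsigargin and tunicamycin group. The reference gene Rpl19 stood at 1079 and 888 FPKM.

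Ratios are given as log2 of (FPKM + 1) in the group labelled Ago2+/+ thapsigargin over (FPKM + 1) in the group labelled Ago2-/- tunicamycin, so a positive value is higher with thapsigargin. The words with thapsigargin and with tunicamycin name groups by their label and no effect of a compound. The median over 11820 loci was 0.0031, 90% lay between -0.35 and 0.33, and the FPKM of both groups correlated with Spearman's rho of 0.987 across loci. Loci at 2-fold or more were 78 higher (0.66% of all) and 82 lower (0.694%). At 1.2-fold, 973 loci were higher (8.23%) and 999 lower (8.45%), which left 9848 loci (83.3%) within 1.2-fold. The choice of the pair fixes this closeness, and nothing is read from it. The median ratio moved with level, from -0.08 at a mean of 2 to 5 FPKM to 0.14 at 100 FPKM or more, so lists of abundant transcripts are also given after each locus was set against the median of its level. Counts at 1.2-fold in every list below are to be read beside 8.23% higher and 8.45% lower of all loci. Among 4296 loci with 1 protein-coding gene and 20 FPKM or more in both groups, the shares were unequal, with 7.75% higher and 1.86% lower. The values next to the 2-fold threshold were -0.97 for the ubiquitin-like Isg15 and 0.98 for Prl2c2 just inside it, where the pseudogene AC156560.1 (2.29 against 5.58 FPKM) lay nearer still, and 1.01 for Coro1b and -1.01 for Plekha4 just past it.

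**Figure D1:**
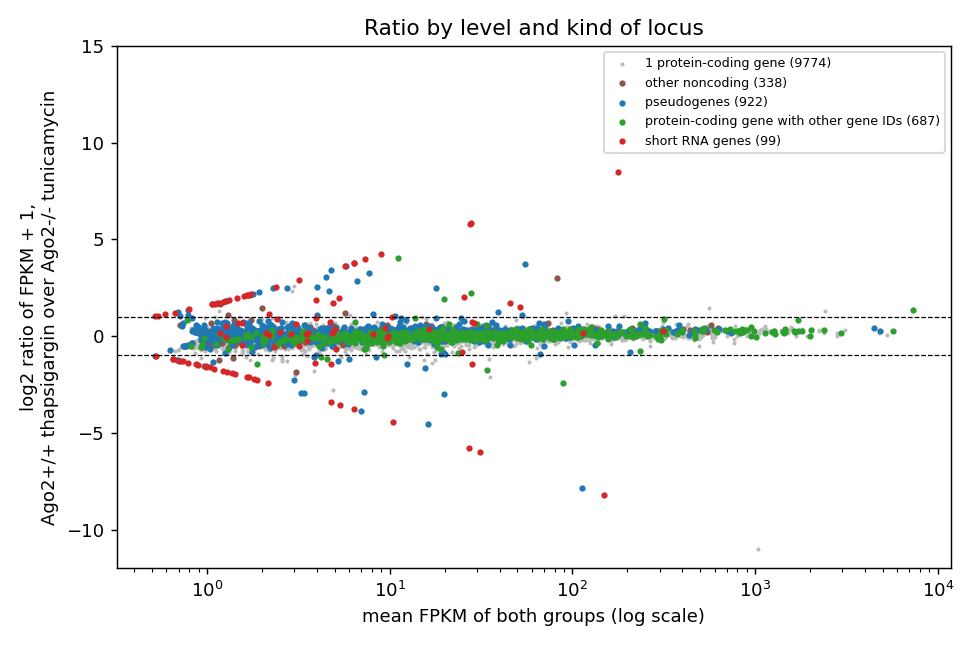
Each point is a locus, with the mean FPKM of both groups on a log axis and the log2 ratio of FPKM + 1 on the y axis, coloured by the kind of gene in the locus; dashed lines mark 2-fold. The 9774 loci with 1 protein-coding gene lie in a band around 0, while 65 of 99 short RNA loci lie past 2-fold, most on the straight edges formed by loci listed at 0 in 1 group.

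Much of the spread past 2-fold lay outside ordinary coding genes. Of 160 loci past 2-fold, 65 (40.6%) held short RNA genes such as small nucleolar RNAs, which guide chemical marking of ribosomal RNA, although these loci were 0.838% of all. Pseudogenes gave 42 (26.3%). Loci with a single protein-coding gene were 82.7% of all loci and gave 33 (20.6%), that is 10 higher and 23 lower. Among short RNA loci 65.7% were past 2-fold, and 55 of those 65 were listed at 0 in 1 group. Since 1 is added to each FPKM, a locus at 0 in 1 group and 1 FPKM or more in the other always passes 2-fold. The share was 59.7% of 134 short RNA loci in the pair labelled Ago2+/+ tunicamycin and Ago2-/- DMSO. There 68 of the 80 past 2-fold were listed at 0 in 1 group. In the pair labelled Ago2-/- thapsigargin and Ago2+/+ DMSO it was 69.1% of 123, and 71 of the 85 were so listed. Neither pair shares a library with this one. The shares of short RNA loci in all these pairs thus rest mostly on listings at 0. Among single coding genes the share was 0.338% here against 0.232% and 1.25% there.

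Snord65 shows the pattern, with 353 FPKM in the thapsigargin group and a listing at 0 in all 5 other groups. It is a box C/D small nucleolar RNA of 72 bases at chr11:62604515-62604586 (GRCm38, plus strand), inside 2410006H16Rik. Its sequence from the GENCODE M21 transcripts is shown because so short an RNA carried 1 of the largest ratios. Capitals mark matches to the C box (tgatga) near the 5′ end and the D box (ctga) near the 3′ end.
Snord65: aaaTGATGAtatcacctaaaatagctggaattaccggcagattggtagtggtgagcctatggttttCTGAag
Snord7 was at 55.8 FPKM and Snord35a at 55.3 FPKM with thapsigargin, both listed at 0 with tunicamycin. In the other direction, Snord88c was at 54.4 FPKM and the mitochondrial leucine tRNA mt-Tl1 at 296 FPKM with tunicamycin, both listed at 0 with thapsigargin.

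Several coding genes with large ratios shared their locus with a second gene, so the pooled value cannot be divided between both. Nrp1, a receptor for semaphorins and VEGF, was at 27.2 FPKM with thapsigargin and 151 FPKM with tunicamycin, a log2 ratio of -2.43. Its locus on chromosome 8 also holds the hairpin of Mir1903, within an exon 637 bases from the start of Nrp1. Ppm1h, a serine/threonine phosphatase, was at 21.9 against 0.394 FPKM (4.04), and Mir8104 lies within an exon 553 bases from its start on chromosome 10. Ddhd1, a phospholipase, was at 46.3 against 9.17 FPKM (2.22), and Mir5131 lies within an exon 90 bases from its start on chromosome 14. In the 4 other groups Nrp1 ranged from 10.1 to 34.9, Ppm1h from 0.00292 to 0.356 and Ddhd1 from 11.4 to 25.9 FPKM, so for each of these loci 1 group of the pair stood above all other groups. The mature microRNAs, from RefSeq on GRCm38.p6, are printed with the seed (bases 2 to 8) in capitals to show what shares those loci, and no 2 of them have the same seed.
mmu-miR-1903: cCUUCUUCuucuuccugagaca
mmu-miR-8104: cAGGAUGAgguggagugcagcg
mmu-miR-5131: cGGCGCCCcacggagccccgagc
St7 (15.2 against 52.9 FPKM) shared its locus with 3 short RNA genes, and Il31ra (32.1 against 7.72 FPKM) with the pseudogene Gm3226. The lowest ratio of all, -11.03, came from a 65-base locus named Nhej1 at chr1:75125136-75125200, listed at 2085 FPKM with tunicamycin and at 0 in the 5 other groups. The long Nhej1 locus, a gene of DNA end joining, had 2.66 and 2.51 FPKM. The part of the second genes in these ratios was not tested.

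**Figure D2:**
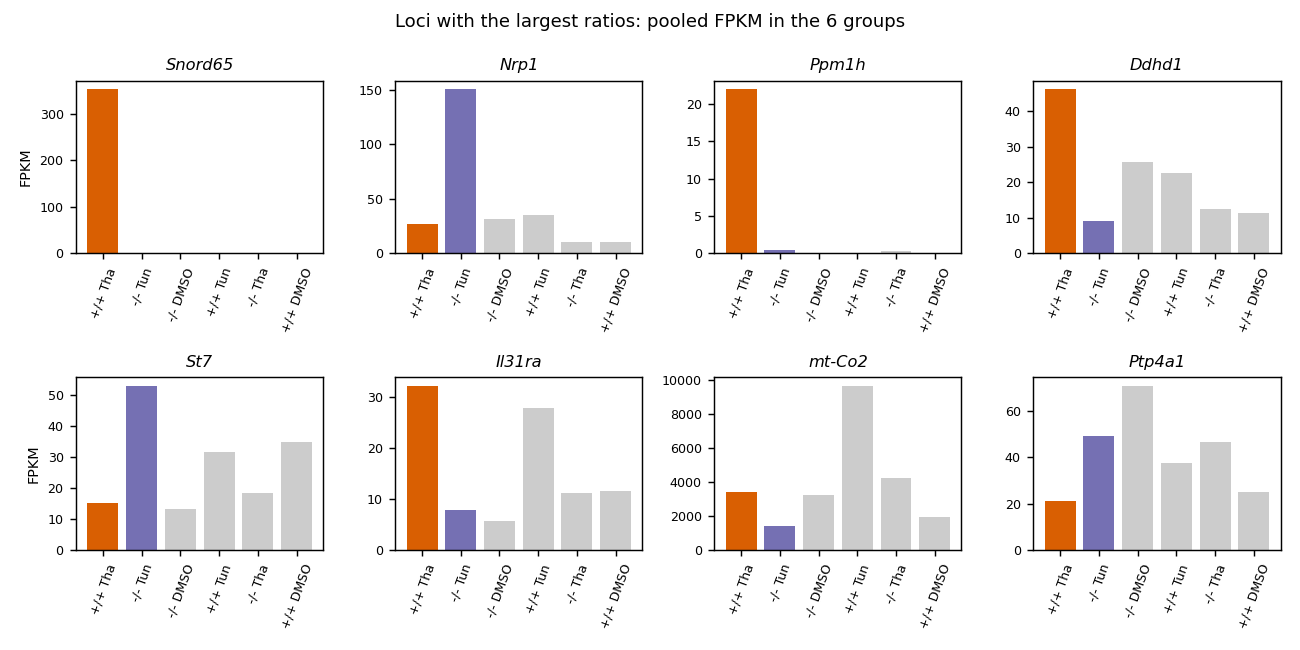
Bars give the pooled FPKM of 8 loci in each of the 6 groups, starting at 0, with the pair in orange (labelled Ago2+/+ thapsigargin) and purple (labelled Ago2-/- tunicamycin) and the other 4 groups in grey; there are no error bars because each group has 1 pooled value. Snord65 is above 0 in the orange group, and Ppm1h is near 0 outside it, while mt-Co2 and Ptp4a1 vary among the grey groups too.

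Past these loci stood single-gene coding loci with ratios of 2-fold or more in both directions. Mat2a, which makes S-adenosylmethionine, was at 0.476 against 9.31 FPKM, and Ppp1ca, a protein phosphatase subunit, at 1.13 against 6.54 FPKM. Rnf181, a ubiquitin ligase, was at 5.52 against 0.303 FPKM and Mrps23, a mitochondrial ribosomal protein, at 5.81 against 0.14 FPKM. Levels under 10 FPKM in both groups make these the low end of the named genes. In the 4 other groups Mat2a ran from 1.43 to 18.2 FPKM and Mrps23 from 0.175 to 7.23 FPKM, so both varied outside the pair too. Ppp1ca ran from 0.854 to 1.07 FPKM there and Rnf181 from 0.0938 to 0.159 FPKM. Ptp4a1, a phosphatase linked to proliferation, was at 21.01 against 49.1 FPKM, and the 4 other groups ran from 24.97 to 70.99 FPKM.

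Genes of the unfolded protein response mostly lay within 1.2-fold in this pair, as did 83.3% of all loci, and since the pair was chosen for closeness nothing is read from it. Hspa5, which encodes the main ER chaperone BiP, stood at 5367 FPKM with thapsigargin and 5155 FPKM with tunicamycin, a log2 ratio of 0.06. Hsp90b1 was at 1990 and 1998 FPKM, and Calr, a calcium-binding lectin chaperone, at 1690 and 1681 FPKM. Of 23 ER chaperones and folding enzymes, 0 passed 1.2-fold in either direction, their ratios ran from -0.18 to 0.06, and the median was -0.05 beside 0.0031 over all loci. Lumenal and membrane chaperones had a median of -0.04 and the disulfide isomerases and oxidases -0.06. Set against the median of loci of the same level, the list median was -0.16.

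Of 20 ERAD and IRE1-XBP1 genes at 1 FPKM or more (21 listed), 0 passed 1.2-fold and 16 lay below 0, with a median of -0.08. Herpud1, which organizes the ubiquitin ligase complex of ERAD, was at 431 and 492 FPKM. Xbp1, the factor made active by IRE1 splicing, was at 117 and 131 FPKM, a value that does not separate spliced from unspliced transcripts. Edem3, which trims mannose from ERAD substrates, had 21.9 and 25.4 FPKM, the lowest ratio of the list at -0.21. All of these differences were smaller than 1.2-fold.

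The PERK-ATF4 arm had a median of -0.02 over 40 of 41 genes with a locus, with 0 genes higher and 4 lower at 1.2-fold. Ddit3 was at 345 and 349 FPKM, Atf4 at 583 and 575 FPKM and Trib3, a feedback inhibitor of this arm, at 106 and 106 FPKM. Those lower were the hormone Fgf21 (5.50 against 9.83 FPKM, -0.74), the transcription factor Cebpb (14.2 against 20.2 FPKM, -0.48), the stress cytokine Gdf15 (5.67 against 7.41 FPKM, -0.33) and the death effector Bcl2l11 (3.55 against 4.63 FPKM, -0.31). All 4 stood at 20.2 FPKM or less in both groups.

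Genes at the direct targets of the compounds differed little as well. Atp2a2, the SERCA pump blocked by thapsigargin, was at 241 and 236 FPKM, and Dpagt1, the enzyme blocked by tunicamycin, at 30.9 and 29.2 FPKM. Of 26 ER calcium genes at 1 FPKM or more (35 listed), 2 were lower at 1.2-fold and 0 higher, with a median of -0.06. They were the calcium-responsive factor Nfatc4 (7.09 against 8.96 FPKM, -0.30) and Atp2b4, a calcium pump of the plasma membrane (5.43 against 9.17 FPKM, -0.66), which stood at 0.0737 to 0.582 FPKM in the 4 other groups. Of 49 genes of N-glycan assembly, 1 was higher at 1.2-fold and 0 lower, with a median of -0.02. That gene was Pmm1, a phosphomannomutase (48.1 against 39.5 FPKM, 0.28), and the lowest was Gmppb, which makes GDP-mannose (36.2 against 43.4 FPKM, -0.26).

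One element of the Hspa5 promoter is shown because no gene of its list passed 1.2-fold. The ER stress response element was searched as CCAAT and CCACG with 9 bases of any kind between them, on both strands, in windows from 250 bases before to 50 after the RefSeq start. It was found in 7 of the 19 chaperone genes with a window and in 0.157% of the windows of 16522 genes. Of the 16 ERAD and IRE1-XBP1 genes with a window, 1 held it. In Hspa5 it begins 65 bases before the RefSeq start, at chr2:34772020-34772048 for the stretch printed (GRCm38.p6, plus strand), with the element in capitals. The GENCODE start of Hspa5, chr2:34771970, lies 120 bases before the RefSeq start, so by that annotation the element is inside the gene. A match is a description of the letters and no sign of binding.
Hspa5: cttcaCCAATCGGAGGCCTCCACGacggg

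Ctgf, the matricellular protein CCN2, was at 259.9 against 125 FPKM, 2.08 times as high in the group labelled Ago2+/+ thapsigargin (log2 ratio 1.05). It is induced by TGF-beta in many cells. In the 4 other groups Ctgf ran from 7.45 to 17.9 FPKM, so both groups of the pair were far above the rest.

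Contractile genes shifted the same way but by less than 2-fold. Of 19 at 1 FPKM or more (23 listed), 18 had a ratio above 0, 9 were higher and 0 lower at 1.2-fold, and the median was 0.26, or 0.13 against loci of the same level. Tagln, an actin-binding protein of smooth muscle, was at 648 against 444 FPKM (0.55), Actg2 at 38.2 against 25.6 FPKM (0.56), and Acta2, smooth muscle actin, at 1644 against 1252 FPKM (0.39). Tpm2, a tropomyosin, was at 242 against 188 FPKM (0.36). Tagln and Actg2 mark this pair of groups among the 6, with Tagln at 0.333 to 2.90 FPKM and Actg2 at 0.0215 to 0.229 FPKM in the other 4.

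Immediate early genes, which answer growth factors and stress within minutes, were mixed. Of 26 at 1 FPKM or more (30 listed), 13 were higher and 4 lower at 1.2-fold, against 8.23% and 8.45% of all loci, and the median was 0.25. Besides Ctgf, the higher ones included Ptgs2, the inducible cyclooxygenase (20.1 against 9.78 FPKM, 0.97), Dusp5, a phosphatase of ERK (26.8 against 17.96 FPKM, 0.55), and Cyr61, or CCN1 (364 against 256 FPKM, 0.51). Those lower were Jund (0.227 against 1.11 FPKM, -0.78), Fos (2.0996 against 3.72 FPKM, -0.61), Junb (28.0 against 34.8 FPKM, -0.31) and the growth inhibitor Btg2 (10.3 against 13.3 FPKM, -0.34). Fos, Junb and Jund belong to the AP-1 family, as does Fosl1, which was higher (34.3 against 24.3 FPKM, 0.48).

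Ctgf, Cyr61 and Ankrd1 (163 against 118 FPKM, 0.46) are also known targets of the transcription cofactor YAP. A signature of 22 YAP targets, added after the values of its leading genes were seen, had 7 higher and 1 lower of 20 at 1.2-fold and a median of 0.10. Other higher members were Axl, a TAM receptor (159 against 111 FPKM, 0.51), Crim1 (45.0 against 33.6 FPKM, 0.41) and the coagulation receptor F3 (28.9 against 21.7 FPKM, 0.40). Targets of TGF-beta, added in the same way, had 3 higher and 2 lower of 12 and a median of 0.07, with Smurf2, a ubiquitin ligase for TGF-beta receptors, at 37.1 against 23.4 FPKM (0.65). Id1, Id2 and Id3, inhibitors of differentiation factors and targets of BMP signalling, were each higher, with Id1 at 35.5 against 24.0 FPKM (0.55). Over all loci, 8.23% were higher and 8.45% lower at 1.2-fold. These added lists are not independent evidence of a direction.

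The motif of TEAD, the DNA-binding partner of YAP, was searched as GGAATG on both strands. It was found in 7 of the 13 YAP target genes with a window and in 13.2% of the windows of all genes. Cyr61 is shown, with the match (read on the opposite strand) in capitals, 103 bases before the RefSeq start, for chr3:145649986-145650135 on the minus strand (GRCm38.p6).
Cyr61: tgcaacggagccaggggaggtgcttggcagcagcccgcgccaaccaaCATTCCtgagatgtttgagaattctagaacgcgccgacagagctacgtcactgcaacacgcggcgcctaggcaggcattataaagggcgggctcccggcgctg

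Transcripts of ribosome production were higher across their lists in the group labelled Ago2+/+ thapsigargin. Of 25 genes of nucleolar ribosome assembly, a list added after values were seen, all 25 had a ratio above 0, 20 were higher at 1.2-fold and 0 lower, with a median of 0.34, or 0.25 against loci of the same level. Nop16 was at 72.7 against 50.03 FPKM (0.53), Nip7 at 85.9 against 59.7 FPKM (0.52) and Npm1, the abundant nucleolar chaperone nucleophosmin, at 1814 against 1368 FPKM (0.41). Of 54 single-gene loci of cytosolic ribosomal proteins, 53 were above 0 with a median of 0.28, or 0.15 against loci of the same level, and many of these genes have processed pseudogenes that can share reads. Myc, which drives ribosome production, was at 98.5 against 75.7 FPKM (0.38). Ran, a GTPase of nuclear transport, was at 523 against 335 FPKM (0.64), and Hmga1, a chromatin protein, at 146 against 94.9 FPKM (0.62).

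**Figure D3:**
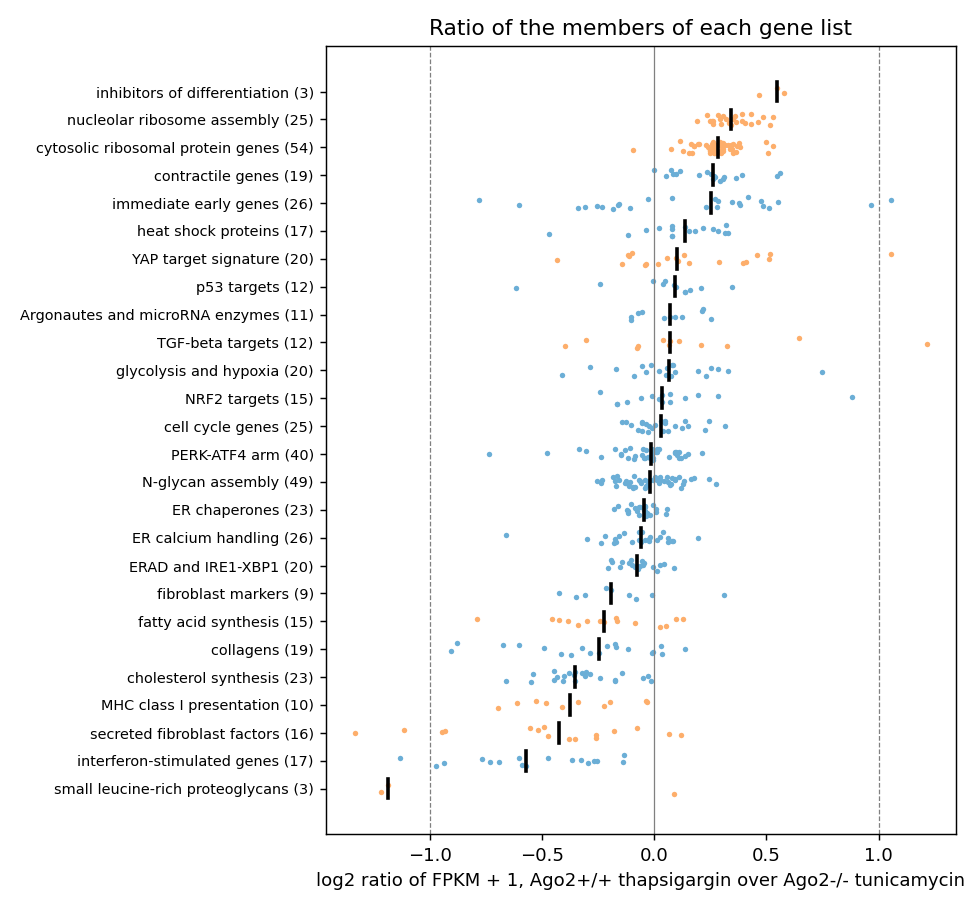
Each point is a gene at 1 FPKM or more, placed by its log2 ratio of FPKM + 1 (labelled Ago2+/+ thapsigargin over labelled Ago2-/- tunicamycin), with 1 row per gene list and its number of genes in brackets; black bars are medians, blue lists were written first and orange lists after values were seen. The stress lists sit around 0, ribosome assembly and contractile genes lie to the right, and interferon, matrix, cholesterol and MHC class I genes to the left.

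Matrix genes were higher in the group labelled Ago2-/- tunicamycin. Of 19 collagen genes at 1 FPKM or more (24 listed), 9 were lower with thapsigargin at 1.2-fold and 0 higher, with a median of -0.25. The fibrillar collagens Col1a2 (410 against 577 FPKM, -0.49) and Col3a1 (16.3 against 30.9 FPKM, -0.88) were among them, as were Col11a1 (10.8 against 21.2 FPKM, -0.91) and the microfibril collagen Col6a1 (50.8 against 77.6 FPKM, -0.60). Col5a2 (327 against 320.5 FPKM) and Col4a1 (33.4 against 32.6 FPKM) were alike, so the shift did not cover all collagens.

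Secreted factors of fibroblasts included single genes past 2-fold on this side. Mgp, an inhibitor of calcification, was at 32.6 against 83.6 FPKM (-1.33), or 2.57 times as high with tunicamycin. Ptn, the growth factor pleiotrophin, was at 39.7 against 87.2 FPKM (-1.12), or 2.199 times as high, and was at 0.0118 to 0.126 FPKM in the 4 other groups. Il1rn, an antagonist of the interleukin-1 receptor, was at 9.08 against 24.97 FPKM (-1.36), Lrrc17 at 8.93 against 22.04 FPKM (-1.21) and the proteoglycan Ogn at 10.3 against 25.3 FPKM (-1.22). Aspn, a proteoglycan at 1.18 against 3.98 FPKM (-1.19), lies beside Ogn. Bgn, or biglycan, was at 498 against 469 FPKM (0.09), so small leucine-rich proteoglycans (3 of 13 at 1 FPKM or more) did not move as 1 group.

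Of 16 secreted factors at 1 FPKM or more (20 listed, chosen after values were seen), 10 were lower with thapsigargin at 1.2-fold, 2 of them at 2-fold, and 0 higher, with a median of -0.43. Fbln5, which assembles elastic fibres, was at 76.6 against 113 FPKM (-0.55), Fstl1 at 222 against 312 FPKM (-0.49), and the collagen-binding protein Sparc at 664 against 863 FPKM (-0.38). Postn, or periostin, had 4.77 and 10.1 FPKM (-0.95). Of the fibroblast receptors, Pdgfra was at 6.25 against 8.72 FPKM (-0.42) and Pdgfrb at 13.9 against 17.9 FPKM (-0.35). Matrix and contractile genes, which are both features of myofibroblasts, thus lay on opposite sides of 0.

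**Figure D4:**
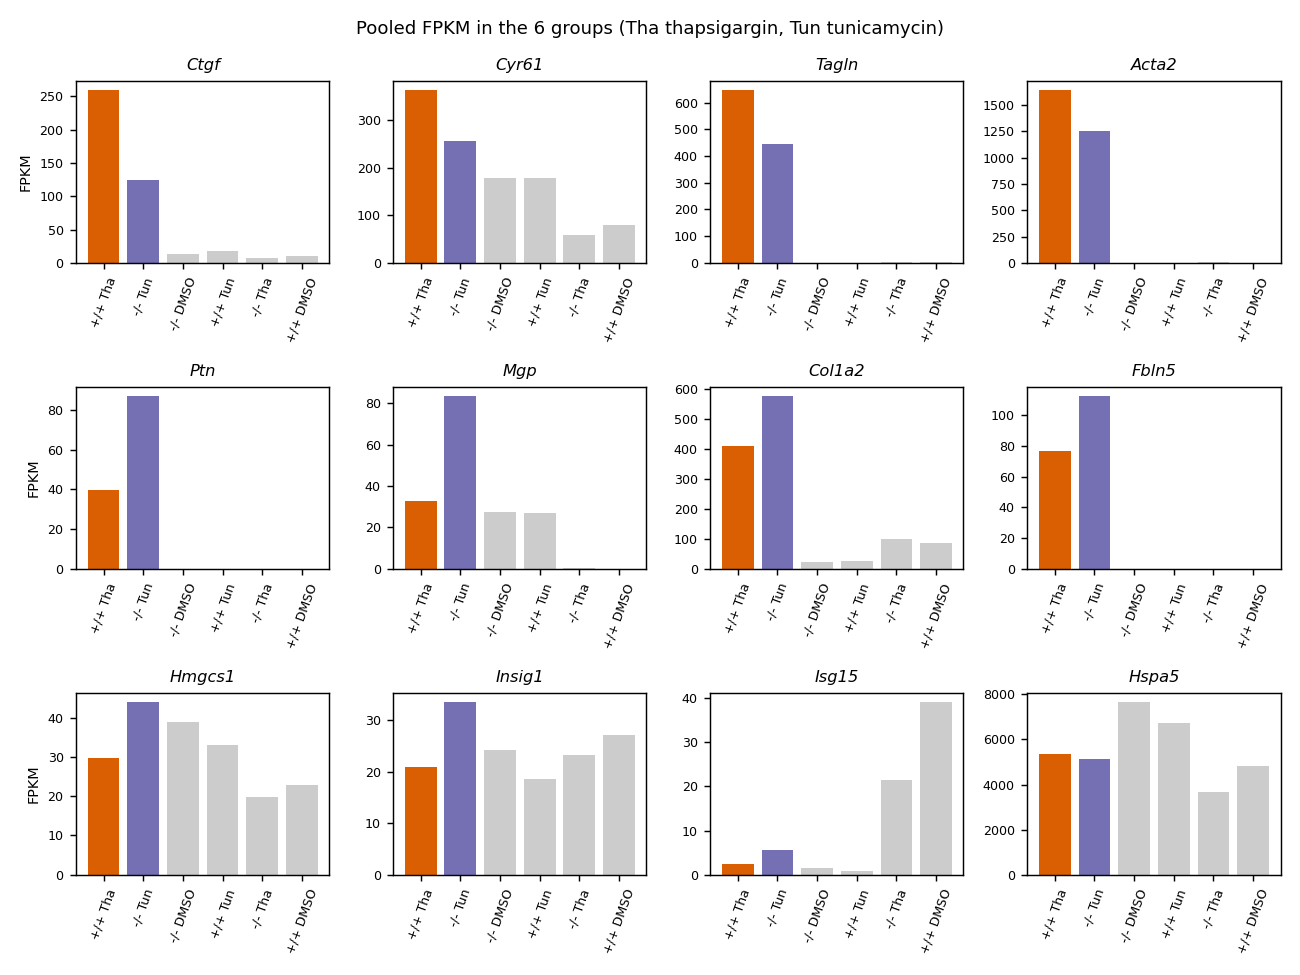
Bars give the pooled FPKM of 12 genes in the 6 groups from 0 upward, with the pair in orange (labelled Ago2+/+ thapsigargin) and purple (labelled Ago2-/- tunicamycin); no error bars exist because each group has 1 pooled value. Ctgf, Cyr61, Tagln and Acta2 are higher in orange, Ptn, Mgp, Col1a2, Fbln5, Hmgcs1, Insig1 and Isg15 in purple, and Hspa5 is level at 5367 and 5155 FPKM.

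Genes of cholesterol synthesis were lower throughout in the group labelled Ago2+/+ thapsigargin. All 23 at 1 FPKM or more (25 listed) had a ratio below 0, 16 were lower at 1.2-fold, 0 reached 2-fold and the median was -0.35. Insig1, which holds the sterol sensor in the ER, was at 20.8 against 33.6 FPKM (-0.66), Hmgcs1, an early enzyme of the pathway, at 29.8 against 44.1 FPKM (-0.55), Dhcr7, its last enzyme, at 5.74 against 8.81 FPKM (-0.54) and Acat2 at 17.3 against 24.0 FPKM (-0.45). In the pairs that hold DMSO, where genotype label changes with treatment too, the median of this list was -0.18 for tunicamycin over DMSO and -0.18 for thapsigargin over DMSO.

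Fatty acid genes, a list added later, were lower with thapsigargin for the desaturases Scd2 (172 against 297 FPKM, -0.79), Scd1 (29.6 against 40.1 FPKM, -0.43) and Fads2 (69.1 against 90.6 FPKM, -0.39). Fasn, the synthase itself, was at 65.0 against 59.4 FPKM (0.13), and the list of 15 had a median of -0.22. The core of the sterol response element, searched as TCACNCCA on both strands, was found in 3 of the 16 cholesterol genes with a window and in 3.96% of those of all genes. Insig1, with the lowest ratio of the cholesterol list, had no match. Hmgcs1 is shown with its match in capitals, 137 bases before the RefSeq start, for chr13:119690201-119690350 on the plus strand (GRCm38.p6).
Hmgcs1: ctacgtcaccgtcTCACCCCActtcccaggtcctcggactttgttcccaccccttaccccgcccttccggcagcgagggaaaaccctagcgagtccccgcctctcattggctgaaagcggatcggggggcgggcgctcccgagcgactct

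Interferon-stimulated genes gave the lowest median of the lists written first, at -0.57. All 17 at 1 FPKM or more (29 listed) had a ratio below 0, and 14 were lower at 1.2-fold, with 1 past 2-fold. That gene was Ifi44 (0.207 against 1.65 FPKM, -1.14). Isg15, a ubiquitin-like modifier, was at 2.34 against 5.56 FPKM (-0.97), Xaf1 at 0.758 against 2.37 FPKM (-0.94), the chemokine Ccl5 at 2.30 against 4.61 FPKM (-0.77) and Ddx58, the RNA sensor RIG-I, at 10.8 against 16.5 FPKM (-0.57). Most of these levels are low, and at 5 FPKM or more in the higher group the median was -0.33. Ifi44 and Xaf1 reached 1 FPKM in the tunicamycin group alone, so for them the floor itself fixed a ratio below 0. The same list had a median of -0.54 for thapsigargin over DMSO in the pair labelled Ago2-/- thapsigargin and Ago2+/+ DMSO, where Isg15 was at 21.4 against 39.2 FPKM. It was -0.09 for tunicamycin over DMSO in the remaining pair. Genotype label changes with treatment in both of those pairs. In the pair with thapsigargin, Hspa5 was at 3677 against 4808 FPKM and the ER chaperones had a median of -0.25, so these ratios are not those of a treatment alone.

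Presentation by MHC class I, added after values were seen, had a ratio below 0 for each of the 10 genes at 1 FPKM or more (12 listed), with 6 lower at 1.2-fold (median -0.38). Tap1, a peptide transporter into the ER, was at 2.26 against 4.28 FPKM (-0.70), and H2-K1 at 56.9 against 76.1 FPKM (-0.41). B2m, the light chain, was at 251 and 257 FPKM. Pairs of GAAA runs 2 bases apart, the pattern of the interferon-stimulated response element, were found in 8 of the 14 interferon genes with a window and in 3.47% of those of all genes. Ifi44, with the lowest ratio of the interferon list, had no match. Isg15 is shown with its matches in capitals, the first 78 bases before the start, for chr4:156200819-156200968 on the minus strand (GRCm38.p6).
Isg15: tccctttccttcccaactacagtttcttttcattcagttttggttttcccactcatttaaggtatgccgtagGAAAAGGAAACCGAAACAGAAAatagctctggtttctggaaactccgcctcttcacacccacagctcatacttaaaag

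The remaining lists lay near the median of all loci. Cell cycle genes had a median of 0.03 with 1 of 25 past 1.2-fold (Ccnd1, or cyclin D1, at 13.4 against 10.6 FPKM), NRF2 targets 0.04 over 15, p53 targets 0.09 over 12, and Argonautes and microRNA enzymes 0.07 over 11. Of the NRF2 targets, Gclm, a subunit of the enzyme that starts glutathione synthesis, stood apart at 409 against 222 FPKM (0.88), in a locus that also holds the pseudogene Gm6061. Heat shock proteins had a median of 0.13 over 17, from the small heat shock protein Cryab (18.4 against 25.8 FPKM, -0.47) to Hspd1, a mitochondrial chaperonin (378 against 300 FPKM, 0.33). Of 20 genes of glycolysis and hypoxia, Gapdh had the highest ratio (392 against 233 FPKM, 0.75) and Pdk1, which restrains pyruvate oxidation, the lowest (10.8 against 14.7 FPKM, -0.41), around a median of 0.07. Gapdh has many pseudogenes, and the sharing of reads with them was not tested.

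Of 10 loci of mitochondrial transcripts (13 genes listed), 9 had a ratio above 0, 4 were higher and 0 lower at 1.2-fold, 3 passed 2-fold and the median was 0.17. The locus of mt-Atp6, mt-Atp8 and mt-Co3 was at 10526 against 4134 FPKM (1.35) and that of mt-Nd4 and mt-Nd4l at 2213 against 1223 FPKM (0.86). mt-Co2 was at 3414 against 1405 FPKM (1.28) and mt-Nd3 at 820 against 303 FPKM (1.43), whereas mt-Cytb was at 2809 and 2809 FPKM and mt-Nd5 at 703 and 706 FPKM. Over all 6 groups mt-Co2 ran from 1405 to 9666 FPKM. The 6 copies on chromosome 1 moved the other way, with 1.06 to 3.02 FPKM with thapsigargin and 127 to 642 FPKM with tunicamycin, and their part in the ratios of the mitochondrial genes was not tested.

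The 4 other groups share no library with this pair, and they hold each stressor beside DMSO. Thapsigargin over DMSO, less tunicamycin over DMSO, was formed from those pairs and set beside the ratio here over 10287 loci at 1 FPKM or more in all 6 groups. Spearman's rho across loci was 0.13 and Pearson's r 0.05. Points share gene length, annotation and the pooling of each group, and a correlation this weak is no finding. Of 21 loci past 2-fold and higher here, 10 had a value above 0 there, and of 15 lower, 9 had a value below 0.

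Single genes were set side by side in the same way. Ctgf was at 7.45 FPKM with thapsigargin against 10.7 FPKM with DMSO in 1 pair and at 17.9 FPKM with tunicamycin against 13.4 FPKM with DMSO in the other. Genotype label changes with treatment in those pairs too, so neither ratio is that of a treatment alone. Id1 was at 39.9 against 29.8 FPKM with thapsigargin and at 117 against 128 FPKM with tunicamycin. The list medians of nucleolar ribosome assembly were 0.14 for thapsigargin over DMSO and -0.04 for tunicamycin over DMSO, and those of collagens -0.08 and 0.0016.

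**Figure D5:**
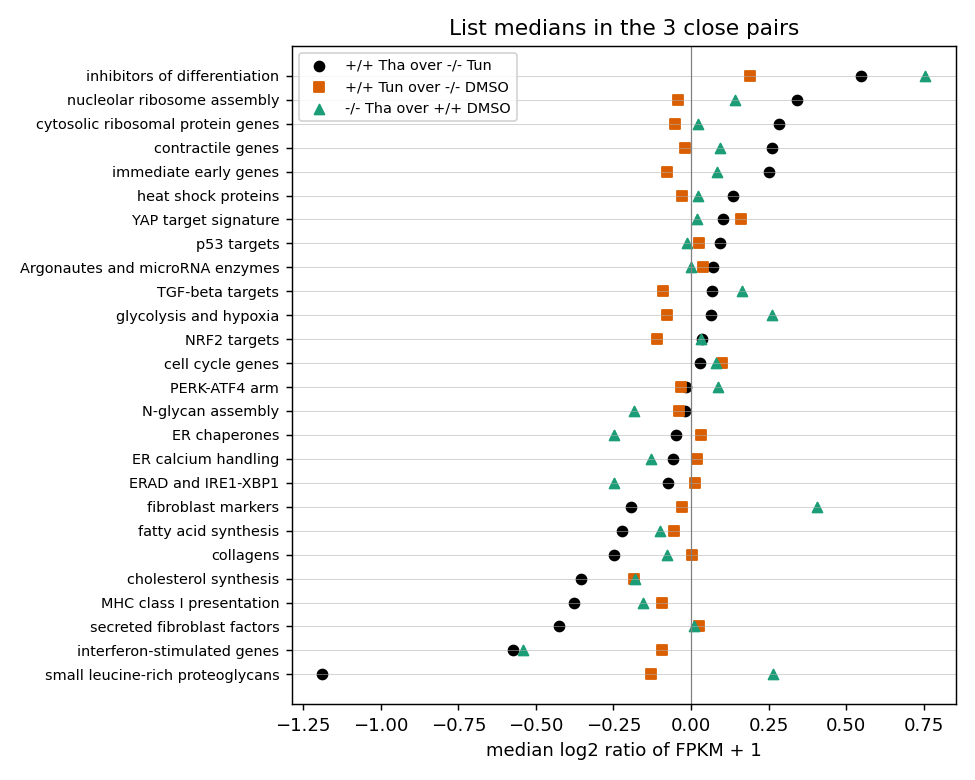
Median log2 ratio of FPKM + 1 of each gene list in the pair described (black circles), in labelled Ago2+/+ tunicamycin over Ago2-/- DMSO (orange squares) and in labelled Ago2-/- thapsigargin over Ago2+/+ DMSO (green triangles). Interferon genes are low in black and green (-0.57 and -0.54), and the ER chaperones are near 0 in black and orange (-0.05 and 0.03) and at -0.25 in green.

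Loci that separate the other close pairs from each other were also read in this pair, whose own levels played no part in the choice. In all, 27 loci had 20 FPKM or more in both groups labelled Ago2-/- DMSO and Ago2+/+ tunicamycin. They had 0.5 FPKM or less in both groups labelled Ago2-/- thapsigargin and Ago2+/+ DMSO. Of these, 20 reached 1 FPKM here, with a median ratio of 0.16. The median level of the 27 was 31.4 FPKM with thapsigargin and 28.1 FPKM with tunicamycin, so most were expressed in this pair too. Their summed level was 1029 FPKM with thapsigargin and 1041 FPKM with tunicamycin. Of 6 loci chosen the opposite way, high in the groups labelled Ago2-/- thapsigargin and Ago2+/+ DMSO, 3 reached 1 FPKM, with summed levels of 70.5 and 68.1 FPKM. Conversely, 12 loci reached 20 FPKM in both groups of the pair and 0.5 FPKM or less in all others, of which 5 were higher and 7 lower with thapsigargin. They ran from Ptn (-1.12), Fbln5 (-0.55) and the surface protein Cd34 (-0.48) to the connexin Gjb2 (0.33) and Actg2 (0.56). The Y-linked Ddx3y (-0.08) and Eif2s3y (0.09) were among these loci.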

How the data were processed

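RNA-seq libraries of mouse embryonic fibroblasts were made in 6 groups of 3. Per the labels and the study's methods, the authors used FastQC 0.11.7, HISAT2 2.1.0, StringTie 1.3.4d and Cuffdiff 2.2.1 on GRCm38 with Ensembl release 91. How libraries were scaled, and whether they were stranded, no source read here states. The deposited FPKM is 1 pooled estimate per group, so depth is unknown and no error can be given. The table's columns of fold changes, test statistics, p-values and q-values hold the authors' own comparisons and were not used.

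Loci at 1 FPKM or more in 1 or both groups were kept, a pseudocount of 1 was added and 2-fold and 1.2-fold thresholds were applied, with pandas 2.3.3. Loci were sorted by the GENCODE M21 biotypes of their gene IDs (99.8% matched), which shares the build of the files. Locus starts were written from 1. A gene in several loci was read at its most abundant locus. The code was tested on simulated data with planted ratios.

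Genes were named by rule: the 15 highest and 15 lowest ratios with 1 plain symbol and at least 5 FPKM in the higher group, list members past 2-fold or with the 4 largest ratios, and a few fixed genes. Others (Mgp to Sparc in the matrix lists, Id, YAP, TGF-beta, ribosome, fatty acid and MHC genes) were chosen after their values were seen. Members and lists were chosen with earlier results of these data known. Alternatives covered the pseudocount, floor, threshold, centring, scaling and kinds of locus. Some genes that the rule names are not reported here.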

Additional observations from a re-analysis of the deposited data

How the results depend on the processing

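No paired analysis was possible because the pooled columns carry no replicate numbers, and for the same reason no library could be left out. Counts of loci past 2-fold (78 higher, 82 lower) were 44 and 43 with a floor of 5 FPKM, 164 and 188 at 1.5-fold, 31 and 37 for loci with 1 symbol that is no predicted gene or pseudogene by name, and, chosen after seeing the data, 10 and 23 for loci whose only gene ID is 1 protein-coding gene. With a pseudocount of 0.1, 114 were higher and 139 lower. Fewer loci enter under the floor and the gene filters by construction, and for the pseudocount the cause was not tested. Taking the floor away cannot change either count, since a 2-fold ratio with a pseudocount of 1 needs at least 1 FPKM in the higher group. Without a pseudocount only loci above 0 in both groups were read, of which 85 were higher and 113 lower. That leaves out the 74 loci past 2-fold that were listed at 0 in 1 group, so those counts cover another set of loci. Centring on the median and upper quartile scaling kept both counts within 1.5 times. With a floor of 5 FPKM the median was -0.33 for interferon-stimulated genes, -0.23 for MHC class I presentation and -0.57 for small leucine-rich proteoglycans, of which fewer genes remain. Against loci of the same level, in 5 bins and chosen after seeing the data, medians were -0.16 for ER chaperones, 0.13 for contractile genes, -0.082 for cell cycle genes, 0.15 for cytosolic ribosomal proteins and 0.14 for Rpl19, the one gene examined by the study at the floor. Other list medians moved by 0.1 or less on the log2 scale. The loci high in the groups labelled Ago2-/- thapsigargin and Ago2+/+ DMSO, and low in the pair labelled Ago2-/- DMSO and Ago2+/+ tunicamycin, had a median of 0.14. It was -0.18 at 10 FPKM or more against 1 FPKM or less. The correlation with the other pairs moved by 0.1 or less.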

Other observations

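Other differences between the groups labelled Ago2+/+ thapsigargin and Ago2-/- tunicamycin fell outside the lists. Plaur, the receptor of urokinase, was at 43.4 against 28.2 FPKM (0.60). Plat, the tissue plasminogen activator, was at 23.8 against 34.7 FPKM (-0.52), on the opposite side. Gas1, a membrane protein of growth arrest, was at 7.80 against 17.7 FPKM (-1.08). Zfp618, a zinc finger gene at 1.36 against 3.79 FPKM (-1.02), was listed at 0 in the 4 other groups. These genes were chosen after their values were seen, and no replicate check was possible.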
